A study of Homo sapiens with 12 samples.

Results

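The growth of K562 cells in which CRISPR interference lowered PARP1 together with one other gene was measured in a pooled library of dual-sgRNA constructs, without drug. Constructs that carried a PARP1 sgRNA in either position and a sgRNA of another gene in the other position were selected by sgRNA name, which gave 542 partner genes of the 543 genes in the library and 4336 constructs of 1301881, with 8 constructs for each partner. PARP1 itself was chosen from results of these same screens, so its own growth is given as a description with no test, whereas every partner was kept whatever its value. K562 is an established leukemia cell line, and the K562 CRISPRi line carries the silencing machinery that both sgRNAs of a construct direct to 2 promoters at once. The libraries used for the growth values were 4 reference endpoints, taken from cultures that received the DMSO vehicle and were collected on day 18 after transduction in the 2022 screen or on day 19 in the 2023 screen, and 4 T0 libraries, taken from the same cultures on day 9, before vehicle or drug was added. Each screen had 2 replicate cultures, all libraries came from the same cells with the same construct library, and the 2 screens also differed in how RNase A was applied during extraction of the genomic DNA. The knockdown reached for PARP1 or for any partner was not measured in the files used here.

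PARP1 is the main enzyme that senses DNA strand breaks and attaches chains of ADP-ribose to itself, to histones and to other proteins at the break. The chains bring in single-strand break repair factors around XRCC1, are removed by PARG, and are shaped by the cofactor HPF1, while PARP2 is a second enzyme of the same kind. PARP1 also senses unligated Okazaki fragments during DNA replication, and inhibition of PARP enzymes is known for its toxicity in cells that lack BRCA1 or BRCA2, the basis of PARP inhibitor therapy.

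The PARP1 sgRNAs are directed at the start of the gene, which lies on the minus strand of chromosome 1. The window around that start is shown because it is the promoter that all 4336 constructs are meant to silence, and the windows of ZAR1L and BRCA2 are shown because both partners are among those described below and their starts share a promoter region. In each sequence, from RefSeq with build GRCh38.p14 and written 5′ to 3′ on the strand of the gene, the 250 bases before the annotated start are in lower case and the 50 bases from the start onwards are in capitals. The PARP1 window lies at chr1:226408044-226408343, the ZAR1L window at chr13:32315314-32315613 on the minus strand and the BRCA2 window at chr13:32315258-32315557 on the plus strand.
PARP1: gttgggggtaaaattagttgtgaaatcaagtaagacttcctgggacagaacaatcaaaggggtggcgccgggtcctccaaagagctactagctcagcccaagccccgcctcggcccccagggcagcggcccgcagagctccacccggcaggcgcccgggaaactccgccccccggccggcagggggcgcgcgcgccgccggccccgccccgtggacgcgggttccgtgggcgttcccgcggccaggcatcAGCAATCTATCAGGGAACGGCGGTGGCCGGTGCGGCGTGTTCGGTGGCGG
ZAR1L: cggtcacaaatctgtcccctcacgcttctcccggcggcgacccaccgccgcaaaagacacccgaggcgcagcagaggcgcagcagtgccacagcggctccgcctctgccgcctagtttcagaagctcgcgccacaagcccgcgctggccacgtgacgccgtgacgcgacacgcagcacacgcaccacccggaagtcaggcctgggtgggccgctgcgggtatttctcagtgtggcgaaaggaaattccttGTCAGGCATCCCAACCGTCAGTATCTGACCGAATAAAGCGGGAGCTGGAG
BRCA2: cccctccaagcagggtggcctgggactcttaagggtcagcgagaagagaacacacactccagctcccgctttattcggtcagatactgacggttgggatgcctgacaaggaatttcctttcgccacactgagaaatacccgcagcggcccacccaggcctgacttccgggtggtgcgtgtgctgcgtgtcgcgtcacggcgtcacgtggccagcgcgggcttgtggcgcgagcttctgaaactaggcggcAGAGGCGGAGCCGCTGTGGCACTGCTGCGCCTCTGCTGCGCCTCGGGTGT
The ZAR1L and BRCA2 windows run in opposite directions and share 244 of their 300 bases.

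Growth is given throughout as the log2 ratio of the reads at the reference endpoint over those at T0 in the same replicate, relative to the same ratio of constructs with non-targeting (NT) sgRNAs. A negative value means that cells with the construct lost share between T0 and the endpoint against the cells with those NT constructs. Growth in the PARP1 background is relative to PARP1 paired with the 55 NT sgRNAs, the own growth of a partner is that of the partner paired with NT sgRNAs, and the departure is the first minus the second, so that 0 means that the 2 knockdowns added up on the log2 scale. A PARP1 pair had a mean of 232 (PLK1) to 3964 reads over the T0 libraries, with a median of 2081, and PARP1 with NT sgRNAs had 51019 to 75684 reads. Total reads were 187186889 to 460723933 in the reference endpoint libraries and 221839388 to 325924447 in the T0 libraries. Loss of cells before day 9 is not seen in these ratios.

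The reference endpoint library of 2022 replicate 1 stood apart from the other 3. Over the growth values of the 543 genes with NT sgRNAs, its Pearson r with the others was 0.968 to 0.974, whereas the others had r of 0.996 to 0.999 with each other. The genes furthest below the mean of the other 3 replicates in this library were BRCA2 by a difference of -1.03, BARD1 by -0.96, RAD54L by -0.92 and PARP1 itself by -0.78, and those furthest above were SHMT2 at 0.64 and NOL6 at 0.54. The niraparib endpoint libraries of the same screens, used for this check only, were set beside it. The library correlated with the 4 niraparib libraries at r of 0.831 to 0.860, against 0.735 to 0.791 for the other 3 reference libraries. Its deviation over the 543 genes had r = 0.708 with the niraparib effect of the other 3 replicates. The other 3 libraries, each set likewise against the remaining 2, had r of 0.350 (2022 replicate 2), -0.280 (2023 replicate 1) and -0.337 (2023 replicate 2). The same reference libraries are subtracted on both sides, which by itself adds to r. PARP1 did not follow the niraparib effect, since its growth was 1.24 to 1.53 in the niraparib libraries, against -1.35 in this reference library and -0.58 to -0.54 in the other 3. The cause was not tested. Values without this library are given for the named partners whose call it decides and for the main counts.

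PARP1 knockdown alone slowed growth with both sgRNAs and in both positions. PARP1 with NT sgRNAs had a growth of -1.35 in 2022 replicate 1, -0.56 in 2022 replicate 2, -0.58 in 2023 replicate 1 and -0.54 in 2023 replicate 2. The mean was -0.76 ± 0.39 (SD, n = 4), and without 2022 replicate 1 it was -0.56 ± 0.02 (SD, n = 3). By sgRNA and position, growth was -1.53 to -1.13 in 2022 replicate 1 and -0.67 to -0.41 in the other 3 replicates, so that all 16 values lay below 0. From the lowest, PARP1 ranked 81 of 543 genes in 2022 replicate 1 and 228, 241 and 251 in the others, where it lay near the median gene (-0.45 to -0.41).

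**Figure D1:**
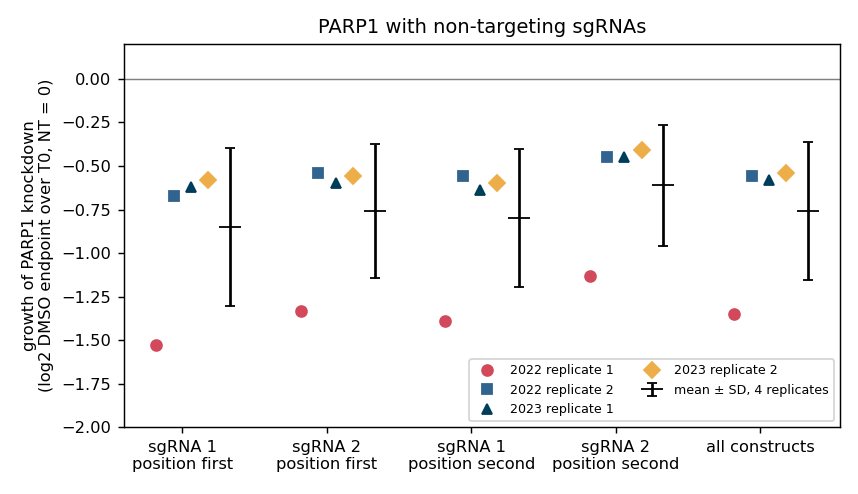
Growth of PARP1 with non-targeting sgRNAs (log2 of reference endpoint over T0, constructs with 2 non-targeting sgRNAs at 0), by PARP1 sgRNA and its position and over all constructs; points are single replicates and bars the mean ± SD of 4 replicates. The 2022 replicate 1 points lie between -1.53 and -1.13, below all other points, which lie between -0.67 and -0.41.

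In the PARP1 background the partners spread from strong loss to gain. The lowest growth was that of NOL6 (-3.48 ± 1.11) and CAD (-3.43 ± 0.80), followed by DNMT1 (-2.64 ± 0.31), HJURP (-2.58 ± 0.71), DCTN3 (-2.50 ± 0.63) and GEMIN2 (-2.44 ± 0.44; SD, n = 4 throughout). These act in ribosomal RNA processing, pyrimidine synthesis, DNA methylation, centromere assembly, the dynactin complex and assembly of splicing particles, and the own growth of all 6 was also low, at -4.09 to -2.89. The highest growth was that of C12orf66 (0.63 ± 0.16), GPS2 (0.38 ± 0.13), MTF2 (0.37 ± 0.07), CBL (0.28 ± 0.10), MYEOV2 (0.26 ± 0.11) and EZH2 (0.20 ± 0.11), whose own growth was above 0 as well, at 0.09 to 0.75. As controls, 27 pairs of NT sgRNAs were joined in name order, and their growth with PARP1 ran from -0.10 to 0.10. Of the 542 partners, 392 lay below that range, 14 above it and 136 within it.

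Few partners grew less with PARP1 than the 2 single knockdowns add up to. In edgeR's quasi-likelihood test over all 147124 gene pairs, with Benjamini-Hochberg adjustment and a threshold of 0.05, 17 partners (3.14%) were lower than the sum, where 3.19% of all gene pairs in the library were. A further 252 partners (46.5%) were higher than the sum, where 39.5% of all gene pairs were. In this fit the share of lower partners lay near that of the whole library and is not a result about PARP1, so the results below rest on the single partners. Without 2022 replicate 1, 24 partners were lower (4.43%, against 2.91% of all pairs) and 173 higher (31.9%, against 35.7%), and 15 of the 17 were among the 24. The split depended on the expected growth. Adding TMM factors moved the median departure of the partners to -0.01 from 0.09. With them 126 partners were lower (23.2%, against 25.1% of all pairs) and 163 higher (30.1%, against 28.2%). A curve of degree 2 through the pairs of each gene was also taken as the expected growth. With it 92 were lower (17%, against 5.56% of all pairs) and 9 higher (1.66%, against 5.58%). Without 2022 replicate 1 as well, 54 were lower (9.96%, against 4.2%) and 1 higher (0.185%, against 4.08%). The 5 partners LIG1, BRCA2, PARP2, HELLS and DNPH1 were lower than the sum in all 20 settings of the fit.

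**Figure D2:**
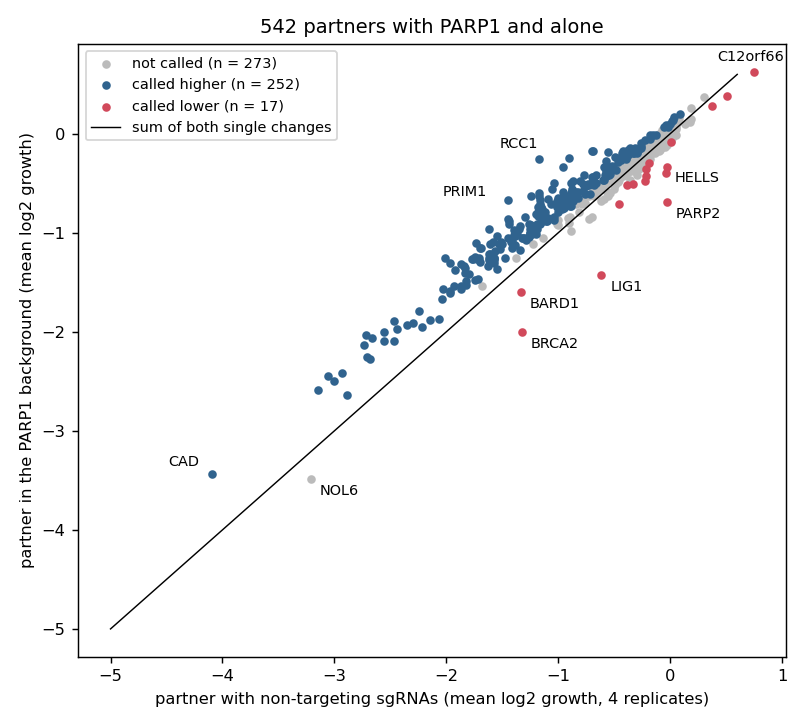
Growth of the 542 partners in the PARP1 background (vertical) and with non-targeting sgRNAs (horizontal), each the mean log2 growth of 4 replicates; the line marks the sum of both single changes, and colours the calls of edgeR's test. Red points (17 partners) lie below the line, with LIG1, BRCA2 and PARP2 furthest from it, and blue points (252 partners) lie above it, mostly where own growth is low.

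PARP2, the second DNA-break sensing ADP-ribose transferase, was nearly neutral alone and slowed growth together with PARP1. Growth of PARP2 in the PARP1 background was -0.67 and -0.69 in the 2022 replicates and -0.67 and -0.73 in the 2023 replicates, against an own growth of -0.05 and -0.02 in 2022 and -0.03 and -0.02 in 2023. The 2 sets do not overlap, and 2022 replicate 1 does not stand out. The fitted departure was -0.66 (SE 0.04; edgeR adjusted p = 1.66e-18), and -0.68 without 2022 replicate 1. Of the 4 measured genes of ADP-ribose turnover PARP2 was the only one called in the test, where 3.14% of all partners were lower and 46.5% higher. C4orf27, the older symbol of the cofactor HPF1, had a departure of -0.05 (edgeR adjusted p = 0.474), which was called at -0.12 without 2022 replicate 1 (adjusted p = 0.0399). PARG, the main ADP-ribose glycohydrolase, had -0.07 (adjusted p = 0.344) with replicate values of -0.26 to 0.20, and was called at -0.15 without 2023 replicate 1 (adjusted p = 0.0284). The chromatin remodeller CHD1L had -0.00 (adjusted p = 0.942). The median departure over the 4 genes was -0.06, against 0.09 over all 542 partners, and -0.10 against 0.07 without 2022 replicate 1. Their median own growth was -0.04. The 176 partners with own growth above -0.2 had a median departure of 0.01, and of -0.00 without 2022 replicate 1.

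LIG1, the ligase that joins Okazaki fragments and seals nicks in long-patch base excision repair, had the lowest departure of all partners. Its growth in the PARP1 background was -0.77 and -1.58 in the 2022 replicates and -1.75 and -1.59 in the 2023 replicates, against an own growth of -0.64 and -0.60 in 2022 and -0.60 and -0.62 in 2023. All 4 values lie below all 4 values of LIG1 alone, but in 2022 replicate 1 the gap was small (-0.12, against -1.16 to -0.97 elsewhere). The growth of PARP1 alone is subtracted from the values with PARP1. It was -0.58 to -0.54 in the other replicates and -1.35 in 2022 replicate 1. The fitted departure was -0.79 (SE 0.09; edgeR adjusted p = 9.62e-10), and -1.03 without that replicate.

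XRCC1, POLB and LIG3, which repair damaged bases or single-strand breaks, departed less. XRCC1, the scaffold of single-strand break repair, was higher than the sum at 0.21 (edgeR adjusted p = 0.000629), but its departure was 0.58 in 2022 replicate 1 and 0.01 to 0.20 in the other 3 replicates, and at 0.08 it was not called without that replicate (adjusted p = 0.137). The XRCC1 sgRNA with an own growth of -0.72 departed by 0.45 and 0.38 with the PARP1 sgRNAs. The other, with an own growth of -0.19, departed by 0.06 and -0.00. POLB, the gap-filling polymerase of base excision repair, had -0.07 (adjusted p = 0.139), and LIG3, the ligase bound to XRCC1, had -0.02 (adjusted p = 0.812).

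Among homologous recombination genes, BRCA2 had the lowest departure. BRCA2, a mediator of strand exchange at resected breaks, had a growth in the PARP1 background of -2.21 and -1.89 in 2022 and -1.88 and -2.02 in 2023, against an own growth of -2.10 and -1.05 in 2022 and -1.08 and -1.06 in 2023. Relative to PARP1 with NT sgRNAs, the growth with PARP1 was alike in all 4 replicates. BRCA2 alone was lower in 2022 replicate 1 than in the others, and the 2 sets overlap through that replicate alone. PARP1 alone, which is subtracted from the values with PARP1, was also lower there (-1.35, against -0.58 to -0.54). Against NT cells the pair was therefore lower in 2022 replicate 1 as well. The fitted departure was -0.68 (SE 0.08; edgeR adjusted p = 3.32e-10), and -0.87 without 2022 replicate 1. BARD1, the partner subunit of BRCA1, had a growth with PARP1 of -1.88 and -1.39 in 2022 and -1.50 and -1.61 in 2023, against -2.06, -1.13, -1.09 and -1.07 alone in the same order. Its departure was above 0 in 2022 replicate 1 (0.17) and below 0 in the other 3 (-0.55 to -0.26), with a fitted value of -0.26 (SE 0.07; adjusted p = 0.00165) and -0.40 without that replicate. Without 2023 replicate 2 it was not called (-0.17; adjusted p = 0.0669).

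Of the 29 measured homologous recombination genes, 5 were lower than the sum by edgeR's test and 4 were higher, where 3.14% of all partners were lower and 46.5% higher. The median departure was 0.00, against 0.09 over all partners, and without 2022 replicate 1 it was -0.07, against 0.07. The median own growth of the 29 was -0.38. Of the 105 partners with own growth between -0.5 and -0.2, 6 were lower and 25 higher, with a median departure of 0.04. Besides BRCA2 and BARD1 the lower ones were PALB2, which links BRCA1 to BRCA2, at -0.25 (adjusted p = 7.18e-05), the recombination mediator RAD51B at -0.18 (adjusted p = 0.0101) and the translocase RAD54L at -0.14 (adjusted p = 0.00474). For these 3, which were named after their values were seen, the departure was 0.02 to 0.17 in 2022 replicate 1 and -0.43 to -0.12 in the other replicates. The higher ones included the nuclease DNA2 at 0.29, XRCC3 at 0.21 and the helicase HELQ at 0.17. RAD51B was not called when any replicate but 2022 replicate 1 was left out (-0.15 to -0.13; adjusted p = 0.0853 to 0.122), and RAD54L was not called without 2022 replicate 2 (-0.10; adjusted p = 0.124). DNA2 and XRCC3 were not called without 2022 replicate 1 (adjusted p = 0.134 and 0.12). Without 2022 replicate 1, 9 of the 29 genes were lower and 2 higher, against 4.43% and 31.9% of all partners, with the end resection genes RBBP8 (-0.25), RAD50 (-0.16) and MRE11A (-0.16) and the recombination cofactor PSMC3IP (-0.13) joining the lower ones, and HELQ still among the higher ones. With the curve as the expected growth, 15 of the 29 were lower and 0 higher, against 17% and 1.66% of all partners. BRCA1 had a departure of -0.03 (adjusted p = 0.693), with -0.23 against the curve (adjusted p = 2.1e-05). This value sums 2 unlike sgRNAs. The BRCA1 sgRNA with an own growth of -0.91 departed by -0.18 ± 0.39 and -0.33 ± 0.46 with the PARP1 sgRNAs (SD, n = 4). The other, with an own growth of -0.11, departed by -0.07 ± 0.23 and 0.17 ± 0.23. Beside these counts stands that RAD54L, BARD1 and BRCA2 were also the genes whose own growth was lowest in 2022 replicate 1 relative to the other replicates.

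DNPH1 and HELLS were nearly neutral alone and lower with PARP1. DNPH1, which removes abnormal deoxynucleotides from the nucleotide pool, had a growth with PARP1 of -0.28, -0.38, -0.34 and -0.35 over the 4 replicates, against -0.03, -0.02, -0.06 and -0.00 alone. The fitted departure was -0.31 (SE 0.04; edgeR adjusted p = 3.9e-09), and -0.33 without 2022 replicate 1. HELLS, a chromatin remodeller that acts in maintenance of DNA methylation, had a growth with PARP1 of -0.35, -0.29, -0.39 and -0.57, against -0.11, 0.01, -0.03 and -0.03 alone. The fitted departure was -0.35 (SE 0.05; edgeR adjusted p = 7.63e-08), and -0.39 without 2022 replicate 1. For both genes the values with PARP1 lie below all values alone.

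The 3 subunits of RNase H2, which removes ribonucleotides from DNA, were not called. RNASEH2C had a departure of -0.10 (edgeR adjusted p = 0.103), RNASEH2B of -0.08 (adjusted p = 0.121) and RNASEH2A of -0.01 (adjusted p = 0.802). Without 2022 replicate 1, RNASEH2C was lower at -0.18 (adjusted p = 0.00329). The RNASEH2A sgRNA with an own growth of -0.35 departed by -0.05 and -0.28 with the PARP1 sgRNAs. The other, with an own growth of -0.03, departed by 0.05 and 0.14. NAMPT and NMNAT1, enzymes of the synthesis of NAD, the substrate of PARP1, were higher than the sum, at 0.29 (adjusted p = 3.04e-06) and 0.42 (adjusted p = 3.25e-10). NMNAT1 departed by 0.35 to 0.54 in every replicate and NAMPT by 0.09 to 0.53. Both had low own growth, at -1.39 and -0.88, and against the curve they stood at 0.05 and -0.01, neither called.

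A pair of the lower partners lie beside BRCA2 or PARP1 in the genome. ZAR1L had a departure of -0.24 (SE 0.05; edgeR adjusted p = 0.000169), with a growth of -0.66, -0.25, -0.42 and -0.57 with PARP1, against -0.47, -0.14, -0.16 and -0.14 alone, and the departure was -0.26 without 2022 replicate 1. By the positions in the sgRNA names, the ZAR1L sgRNAs lie 123 to 210 bases from those of BRCA2, with which ZAR1L shares the promoter region printed above, and whether BRCA2 was silenced in those cells was not tested. LIN9, a subunit of the DREAM and MuvB complexes, had a departure of -0.21 (SE 0.04; adjusted p = 6.17e-05), with -0.24, -0.19, -0.16 and -0.24 over the replicates and -0.20 without 2022 replicate 1. LIN9 is the neighbour of PARP1, with 0 protein-coding genes between them in RefSeq, and its sgRNAs lie 98926 to 98986 bases from those of PARP1. LIN54, another MuvB subunit, was lower at -0.09 (adjusted p = 0.0427), and at -0.07 was not called without 2022 replicate 1 (adjusted p = 0.159), nor without either 2023 replicate (-0.08 and -0.06; adjusted p = 0.165 and 0.241).

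The remaining lower partners departed little, and 3 of them (GPS2, C12orf66 and CBL) grew faster than NT cells when silenced alone. Their growth with PARP1 is relative to PARP1 with NT sgRNAs and not to NT cells. GPS2, a subunit of the NCOR corepressor complex, had a growth of 0.20, 0.39, 0.47 and 0.47 with PARP1, against 0.40, 0.47, 0.58 and 0.57 alone, a departure of -0.12 (edgeR adjusted p = 0.00105). C12orf66, the older symbol of the KICSTOR subunit KICS2 that restrains mTORC1, had 0.51, 0.50, 0.83 and 0.66 with PARP1, against 0.64, 0.66, 0.85 and 0.84 alone, a departure of -0.12 (adjusted p = 0.00162). CBL, a ubiquitin ligase that restrains tyrosine kinase signalling, had a departure of -0.10 (adjusted p = 0.00859), not called without 2022 replicate 1 (-0.09; adjusted p = 0.0538) or 2022 replicate 2 (-0.08; adjusted p = 0.0834). Against the curve none of the 3 was lower, at 0.06, 0.08 and 0.00. STRA13, a component of the FANCM-binding histone-fold complex, was lower at -0.13 (adjusted p = 0.0121). It was not called without 2022 replicate 2 (-0.12; adjusted p = 0.082) or 2023 replicate 2 (-0.10; adjusted p = 0.112). STRA13 was the 1 gene called of 15 Fanconi anemia genes, where 3.14% of all partners were lower and 46.5% higher. The median own growth of the 15 was -0.30.

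**Figure D3:**
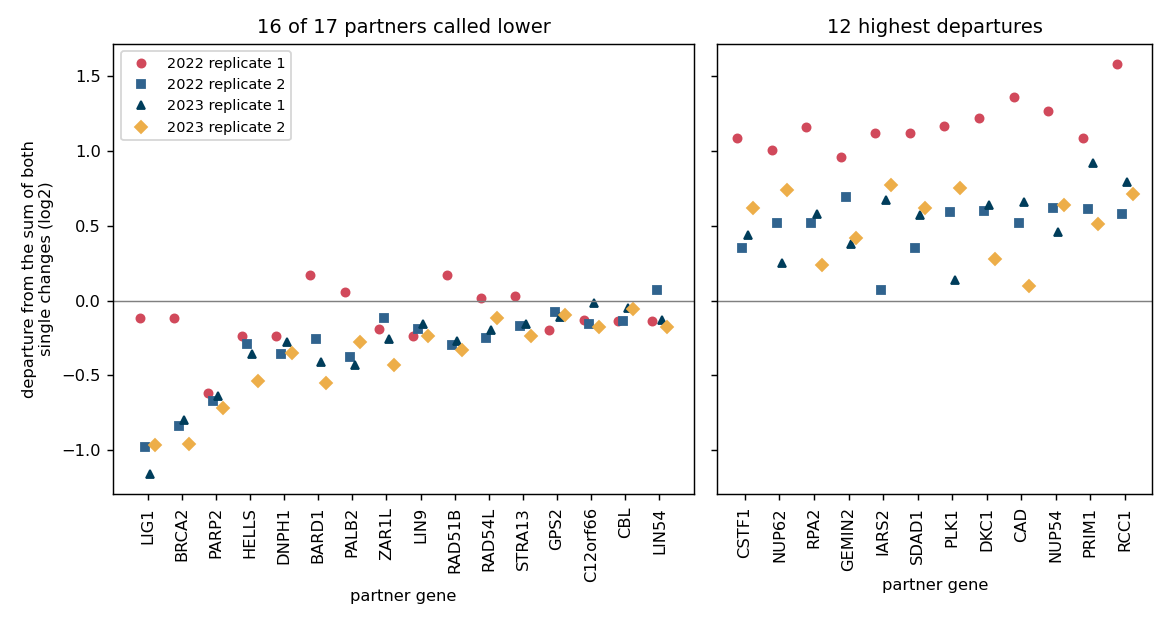
Departure from the sum of both single log2 changes in each replicate, for 16 of the 17 partners called lower (left) and the 12 with the highest departures (right). For PARP2 the 4 replicates lie together at -0.72 to -0.62, for LIG1 and BRCA2 the red 2022 replicate 1 points (-0.12) lie far above the others, and on the right the same replicate is the highest for each gene.

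The departures were also taken for each sgRNA pair, each relative to the same 2 sgRNAs with NT sgRNAs. The 4 sgRNA pairs of a gene share its sgRNAs and are not replicates. For the 10 lowest partners that kept 1 sign in all replicates, all 4 pairs were below 0 except for C12orf66, where 3 were. PARP2 gave -0.73 to -0.58 and LIG1 -1.11 to -0.62. BRCA2 gave -1.26 and -1.12 with one of its sgRNAs, whose own growth was -1.91, and -0.52 and -0.40 with the other, whose own growth was -0.90. HELLS gave -0.55, -0.47 and -0.33 in 3 pairs and -0.05 in the fourth.

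**Figure D4:**
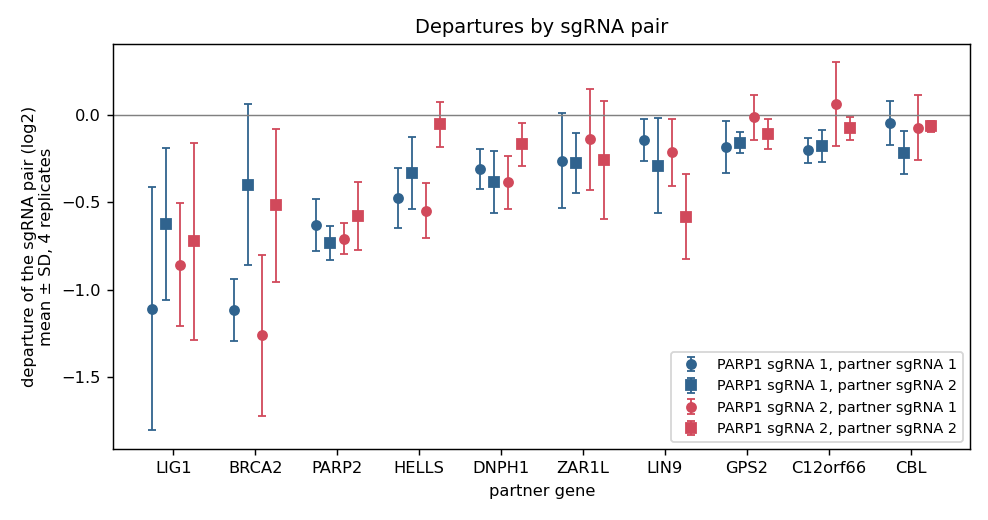
Departure by sgRNA pair (mean ± SD of 4 replicates) for the 10 partners with the lowest departures of 1 sign in all replicates; colour marks the PARP1 sgRNA and shape the partner sgRNA. PARP2 and DNPH1 are below 0 with all 4 pairs, and BRCA2 is lower with its first sgRNA (-1.26 and -1.12) than with its second (-0.52 and -0.40).

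The partners that were higher than the sum were mostly those with low own growth. The median departure was 0.47 over the 26 partners with own growth below -2, 0.35 over 121 partners between -2 and -1, 0.19 over 114 between -1 and -0.5, 0.04 over 105 between -0.5 and -0.2, and 0.01 over 176 above -0.2. The medians without 2022 replicate 1 were 0.30, 0.25, 0.12, 0.02 and -0.00 in the same order. In the first bin 25 of the 26 partners were called higher, and 21 without that replicate, and in the last bin 13 of the 176, and 5 without it. The least-squares slope of growth in the PARP1 background on own growth was 0.58 in 2022 replicate 1 and 0.83, 0.87 and 0.86 in the other replicates, a mean of 0.79 ± 0.14 (SD, n = 4), or 0.85 ± 0.02 without 2022 replicate 1 (SD, n = 3). Among all 543 genes taken as the background in the same way, PARP1 ranked 257 from the lowest, with a median slope of 0.81 over the genes, and it ranked 301 without 2022 replicate 1. The 39 genes whose own growth lay within 0.1 of that of PARP1 had slopes of 0.31 to 0.81 with a median of 0.67, so that the PARP1 slope of 0.79 lay near the top of their range. The slopes of these same genes without 2022 replicate 1 were 0.31 to 0.83 with a median of 0.68, and that of PARP1, at 0.85, lay above all 39. The 39 were picked at the mean growth of PARP1 over 4 replicates (-0.76), whereas without that replicate it was -0.56. They are therefore not matched to PARP1 in the second comparison, and no set matched at -0.56 was taken. Against 27 control pairs of NT sgRNAs, whose departures ran from -0.07 to 0.10, 34 partners lay below and 263 above.

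The 12 highest departures belonged to RCC1, PRIM1, NUP54, CAD, DKC1, PLK1, SDAD1, IARS2, GEMIN2, RPA2, NUP62 and CSTF1, from 0.93 to 0.63, and all were called in edgeR's test. These genes serve nuclear transport (RCC1, NUP54, NUP62), DNA replication (PRIM1, RPA2), pyrimidine synthesis (CAD), ribosome or splicing particle assembly (DKC1, SDAD1, GEMIN2), mitosis (PLK1), mitochondrial translation (IARS2) and cleavage of pre-mRNA (CSTF1), and their own growth was -4.09 to -0.90. RCC1 had a growth with PARP1 of 0.54, -0.40, -0.48 and -0.68, against -1.04, -0.98, -1.27 and -1.39 alone, so that the departure of 1.58 in 2022 replicate 1 was over those of the other 3 (0.58 to 0.79). Its pair had a mean of 237 reads at T0 and that of PLK1 had 232, against a median of 2081 over all partners. By sgRNA pair, departures ran from -1.09 to 0.85 for NUP62 and from -0.72 to 1.05 for IARS2. The lowest sgRNA pairs of these genes had a mean of 16 (NUP62) and 41 (IARS2) reads at T0. The sgRNA pairs of the rest of the 12 were all positive. Without 2022 replicate 1 all 12 were still higher, at 0.44 to 0.68. Against the curve RCC1 alone of the 12 was called (0.46; adjusted p = 0.0174), and at 0.33 it was not called when 2022 replicate 1 was also left out (adjusted p = 0.274).

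Other groups of DNA repair and replication genes had calls above the sum or few calls. In the replisome and clamp loader group, 17 of 26 genes were higher and 0 lower, against 46.5% and 3.14% of all partners, with a median departure of 0.25 and a median own growth of -0.95. Without 2022 replicate 1, 12 of the 26 were higher, against 31.9% of all partners, and the median departure was 0.12. PRIM1 was the highest of them (0.79) and the clamp loader subunit RFC5 the lowest (0.01; adjusted p = 0.936). CHTF18, of the alternative clamp loader of sister chromatid cohesion, departed by 0.68 in 2022 replicate 1 and 0.21 to 0.30 in the others, with a fitted value of 0.37 (adjusted p = 7.56e-08), and it was the 1 partner still higher against the curve without 2022 replicate 1 (0.18; adjusted p = 0.00556). Of 11 genes of the ATR-CHK1 checkpoint and the checkpoint clamp, 7 were higher and 0 lower, from ETAA1 (-0.09, not called) to the fork protein CLSPN (0.57), and 3 were higher without 2022 replicate 1. HUS1, a subunit of that clamp, had 0.38 (adjusted p = 4.53e-07), and 0.27 without that replicate.

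Groups of end joining, recombination intermediates and chromosome structure had 1 to 3 calls each, where 46.5% of all partners were higher and 3.14% lower. The higher share varied with own growth, at 25 of 105 partners between -0.5 and -0.2 and 13 of 176 above -0.2. Median own growth was -0.08 for end joining, -0.20 for the 53BP1-shieldin axis and -0.22 for the BLM group. It was -1.55 for topoisomerases and -0.66 for the SMC5-SMC6 and cohesin group. Of 6 non-homologous end joining genes the Ku subunit XRCC5 was higher (0.34; adjusted p = 0.000469), and XRCC4 was the lowest (-0.05, not called). Of 13 genes of the 53BP1-shieldin axis 2 were higher, with TEN1 the highest (0.12; adjusted p = 0.0118, and 0.21 without 2022 replicate 1 or 0.0549 without 2023 replicate 1) and TP53BP1 the lowest (-0.06; adjusted p = 0.332). Of 11 genes of the BLM complex, structure-specific nucleases and alternative end joining, BLM was higher (0.26; adjusted p = 0.000212) and EME1 was the lowest (-0.09; adjusted p = 0.0536). Of 3 topoisomerases 2 were higher, up to TOP2A (0.53), and TOP3A was not called (0.03). In the SMC5-SMC6 and cohesin group 3 of 5 were higher, up to NDNL2, the older symbol of NSMCE3 (0.61), with DDX11 the lowest (-0.04, not called).

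In metabolic and chromatin groups the counts stand beside the 46.5% of all partners that were higher and the 3.14% that were lower. These shares are not matched for own growth. Its median was -1.53 for one-carbon metabolism and pyrimidine synthesis, -2.73 for ribosomal RNA processing and -0.00 for Polycomb and DNA methylation. Above -0.2, 13 of 176 partners were higher. Of 8 genes of one-carbon metabolism and pyrimidine synthesis 4 were higher, a share near that background, from MTHFD1L (0.05, not called) to CAD (0.72). Of 4 ribosomal RNA processing genes 3 were higher, up to DKC1 (0.71), and NOL6 was the lowest (-0.11; adjusted p = 0.77) with a mean of 33 reads at the endpoint. Of 8 Polycomb and DNA methylation genes 2 were higher, EZH2 (0.11; adjusted p = 0.0197, and 0.127 without 2022 replicate 1 or 0.189 without 2023 replicate 2) and DNMT1 (0.26; adjusted p = 0.000497), with CBX6 the lowest (-0.02). Of the 2 measured genes that restrain mTORC1, C12orf66 was lower and TSC1 was not called (-0.03). The ubiquitin-specific protease cofactor WDR48 was the highest of the Fanconi anemia genes (0.10, not called). C16orf59, the older symbol of TEDC2, was higher at 0.17 (adjusted p = 0.00274; 0.161 without 2022 replicate 1), and AUNIP was not called (0.01).

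Few departures were called different between the screens. With 2 replicates in each screen, few calls do not show that the screens agree. Fitted alone, the 2022 screen had 12 partners lower and 266 higher, and the 2023 screen 26 and 127. In a fit with a separate term for each screen, MCM6 and HJURP were lower in 2023 than in 2022 (0.369% of the partners, against 0.0122% of all pairs) and 0 partners were higher (against 0.0258%). The replicative helicase subunit MCM6 departed by 0.12 and 0.22 in 2023, against 1.05 and 0.63 in 2022, a difference of -0.67 (edgeR adjusted p = 0.0216). The centromere factor HJURP departed by 0.34 and 0.10 in 2023, against 1.36 and 0.47 in 2022, a difference of -0.70 (adjusted p = 0.0379). Both differences include 2022 replicate 1, the highest value of each gene.

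PARP1 and PARP2 were then compared as backgrounds over the 541 partners of both, a comparison added after the values were seen. PARP2 alone had a growth of -0.03 ± 0.01, against -0.76 ± 0.39 for PARP1 (SD, n = 4). The median difference of the departures over all 541 partners was 0.11, so the values with PARP1 lay higher as a whole. In edgeR's quasi-likelihood test of the departure with PARP1 minus that with PARP2, adjusted over the 541 partners, 8 were lower with PARP1 (1.48%) and 143 higher (26.4%), and without 2022 replicate 1 16 were lower (2.96%) and 137 higher (25.3%). The libraries and the constructs of each partner alone are the same on both sides, so an effect of 1 library enters both.

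Of the 16 tested partners that were lower than the sum with PARP1, 8 were also lower than with PARP2, and 12 without 2022 replicate 1. These 16, with the partners named below, were picked by a low departure with PARP1 in the same counts. That departure is part of the tested difference, so the counts of 8 and 12 are not independent of the choice. LIG1 had a departure of -0.79 with PARP1, against -0.10 with PARP2, a difference of -0.69 (SE 0.16; edgeR adjusted p = 0.00997). BRCA2 had -0.68 with PARP1, against -0.07 with PARP2, a difference of -0.61 (SE 0.13; adjusted p = 0.00746). HELLS had -0.35 against -0.03 (difference -0.33; adjusted p = 0.00593), and DNPH1 had -0.31 against -0.01 (difference -0.30; adjusted p = 0.000456). The LIG1 difference was not called without 2022 replicate 2, 2023 replicate 1 or 2023 replicate 2 (-0.67 to -0.53; adjusted p = 0.0519 to 0.0727), nor that of BRCA2 without either 2023 replicate (-0.58 and -0.52; adjusted p = 0.0549 and 0.0564), whereas those of HELLS and DNPH1 were called with any 1 replicate left out. BARD1 had -0.26 with PARP1, against 0.06 with PARP2, a difference of -0.32 that was not called (adjusted p = 0.0604) but was called without 2022 replicate 1 (-0.43; adjusted p = 0.000374).

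The RNase H2 subunits went the other way, where the median difference over all 541 partners was 0.11. RNASEH2C had a departure of -0.10 with PARP1, against -0.78 with PARP2, a difference of 0.68 (SE 0.08; edgeR adjusted p = 9.39e-05). RNASEH2B had -0.08 with PARP1, against -0.54 with PARP2 (difference 0.46; adjusted p = 9.39e-05), and RNASEH2A had -0.01 against -0.35 (difference 0.34; adjusted p = 0.000516). All 3 differences were called with any 1 replicate left out, at 0.32 to 0.61 without 2022 replicate 1.

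**Figure D5:**
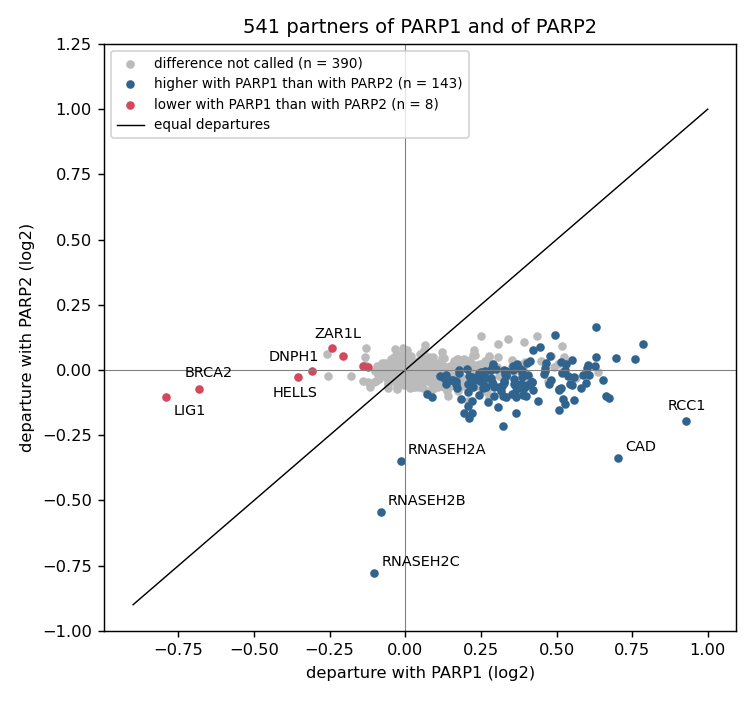
Departure of the 541 shared partners with PARP1 (horizontal) and with PARP2 (vertical), log2, fitted over 4 replicates; the diagonal marks equal departures and colours the test of the difference. LIG1, BRCA2, HELLS and DNPH1 lie at -0.79 to -0.31 with PARP1 and near 0 with PARP2, and the 3 RNase H2 subunits lie near 0 with PARP1 and at -0.78 to -0.35 with PARP2.

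The genes whose departures over 541 partners were most like those of PARP1 were PARS2 (Pearson r = 0.848), RPA3 (0.844), TOPBP1 (0.844), RAD9A (0.840) and HJURP (0.839), where the median over all genes was 0.722. The partners and the libraries are shared between these profiles, 2022 replicate 1 is among them, and the PARP1 departures themselves correlated at r = -0.747 with the own growth of the partners.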

How the data were processed

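Genomic DNA of K562 CRISPRi cells was sequenced at the sgRNA cassettes, and the authors deposited whole-number read counts per construct. Bowtie2 2.3.4.1 is named in the submitters' processing notes, and the annotation or build behind the sgRNA names is not given in the sources used here. The deposited tables of phenotype scores were not used. Counts were used as deposited from 8 libraries, and the 4 niraparib libraries served only in 1 check of labels. Samples were grouped by title. Per the labels, the T0 and endpoint samples of a replicate came from 1 culture, so the replicate was a block. The replicate differences at T0 and at the endpoint correlated at r = 0.0523 in 2022 and 0.0343 in 2023, so the pairing comes from the labels.

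Counts were summed over the constructs of each gene pair in both orders. Pairs that averaged 100 or more T0 counts were fitted with edgeR 4.0.16 in R 4.3.3 (quasi-likelihood, prior degrees of freedom 37, residual degrees of freedom 3, biological coefficient of variation 4.77%), with the product of both single counts over the non-targeting count as offset, so that the arm term is the departure. Benjamini-Hochberg adjustment covered all pairs. A pseudocount of 1 was added to pair counts in values per replicate. Means ± SD are over replicates and fitted values weight replicates by their counts, so both can differ. On 20000 simulated pairs the fit called 100% of changes of 0.5 and 82% of changes of 0.25, and 0.0404% of unchanged pairs. The simulated counts had a common dispersion, no deviating library and no trend with own growth. These shares therefore check the fit and do not give the error or power of the calls in the real data. In the curve setting, the expected growth is the mean of the PARP1 curve and the partner's curve. Alternatives included limma 3.58.1, DESeq2 1.42.0, TMM, other filters, single sgRNAs, positions and screens, and each replicate left out.

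The members and gene lists were chosen with earlier results of these data known. Named partners were the 12 lowest and 12 highest departures of 1 sign in 4 replicates past the threshold (10 lower ones met this), all members of 3 lists, the lowest and highest of the other lists, the 6 lowest and highest by growth, other background genes and the 5 most alike profiles. PALB2, RAD51B, RAD54L, LIN54, RBBP8, RAD50, MRE11A, PSMC3IP, BRCA1, DNA2, XRCC3, HELQ, CHTF18, MCM6 and SHMT2 fall outside this rule and were named after their values were seen. The values of some genes are not reported here.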

Additional observations from a re-analysis of the deposited data

Results flagged for a closer look

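PARP1 alone had a growth of -1.35 in 2022 replicate 1, far from the other 3 replicates (-0.58 to -0.54). Of 77 sets of 4 replicate values examined, 6 had 1 replicate this far from the rest, and in all 6 it was 2022 replicate 1. Among independent sets chance gives about 1 in 20. These sets share their libraries, so their count is not set against that rate. The other 5 were departures with PARP1, from which the growth of PARP1 alone in the same replicate is subtracted. TOP2A stood at 1.18 (others 0.23 to 0.33), NDNL2 at 0.96 (others 0.44 to 0.51), RFC5 at 0.25 (others -0.09 to -0.06), MYEOV2 at 0.21 (others 0.01 to 0.03) and RAD51B at 0.17 (others -0.33 to -0.27).

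The departure differed between the screens, by an interaction term, for MCM6 (2023 minus 2022, -0.67) and HJURP (-0.70).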

How the results depend on the processing

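The 17 partners called lower became 126 with TMM factors, 26 in the 2023 screen alone, 11 with PARP1 in the first position alone, 92 with the degree 2 curve, 54 with the curve and without 2022 replicate 1 (chosen after seeing the data), and 7 by limma on log2 ratios. The 252 called higher became 163 with TMM factors, 127 in the 2023 screen alone, 131 with the second PARP1 sgRNA alone, 163 with PARP1 in the second position alone, 9 with the curve, and 1 with the curve and without 2022 replicate 1. Leaving out 1 replicate gave 13 to 24 lower and 173 to 252 higher. The median departure of 0.093 moved to -0.0089 with TMM factors and to -0.0351 with the curve, with or without 2022 replicate 1. The slope of 0.785 moved by less than its SD in every setting that gave one. The partners lower with PARP1 than with PARP2 (8) were 3 to 16, and the higher ones (143) were 37 to 137, when 1 replicate was left out. Without 2022 replicate 2, 2023 replicate 1 or 2023 replicate 2 the lower ones were 5, 4 and 3, and the higher ones 62, 37 and 72.

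Departures changed sign with the curve, without and with all replicates, for BLM (-0.07 and -0.11), C12orf66 (0.05 and 0.08), C16orf59 (-0.12 and -0.13), DCTN3 (-0.24 and -0.16), DNA2 (-0.17 and -0.12), DNMT1 (-0.19 and -0.30), GEMIN2 (-0.01 and -0.09), GPS2 (0.07 and 0.06), HJURP (-0.21 and -0.13), NAMPT (-0.01 and -0.01), RFC5 (-0.27 and -0.29), TOP2A (-0.11 and -0.01), XRCC3 (-0.15 and -0.16) and XRCC5 (-0.03 and -0.13), where the first value leaves out 2022 replicate 1. With all replicates the curve also turned CBL (0.00), MTHFD1L (-0.16) and NDNL2 (-0.04), and without 2022 replicate 1 MCM6 (-0.03). PSMC3IP turned to 0.14 in the 2022 screen alone and NOL6 to 0.37 by limma. The curve takes out the trend with own growth, and the cause of the other changes was not tested.

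With no replicate block, 17 partners were lower and 250 higher, 16 and 249 of them shared with the fit in which the replicates are paired by a block. The low reads of some pairs limit precision, down to a mean of 33 at the endpoint for NOL6.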
